A study of Mus musculus with 18 samples.

Results

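The genes described here encode the parts that build a peptide-loaded major histocompatibility complex (MHC) class I molecule, the complex that displays fragments of a cell's own proteins on its surface. They are the heavy chain genes H2-K1, H2-D1, H2-Q4 and H2-T23, the light chain gene B2m, the peptide transport and loading genes Tap1, Tap2 and Tapbp, and the immunoproteasome genes Psmb8 and Psmb9. These 10 genes, of 23420 gene symbols in the counted tables, were taken by symbol. Each of the 10 had enough reads in the retina to be tested.

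Retinal RNA of 9 wild-type BALB/cJ mice, an albino strain, aged 8 to 10 weeks and of both sexes, was sequenced, with 3 mice in each of 3 groups. Naïve mice received neither light nor treatment. The other 2 groups were exposed to 15000 lux of white light for 1 h, and their retinas were taken on day 4 after the exposure. Vehicle-treated mice received the solvent, DMSO, alone and TD139-treated mice received TD139, a small-molecule inhibitor of the sugar-binding protein galectin-3, at 15 mg/kg by daily intraperitoneal injection from the day before the light. Each library came from the retina of an individual mouse, so the mouse is the replicate. Setting vehicle-treated beside naïve mice asks what the light exposure changed, and setting TD139-treated beside vehicle-treated mice asks what the inhibitor changed in light-exposed retinas. No group received TD139 without light, and no naïve mouse received vehicle, so the effect of the injections themselves cannot be told apart from that of the light.

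In the MHC class I pathway, proteasomes cut proteins into peptides, and in cells exposed to interferon the immunoproteasome subunits encoded by Psmb8 and Psmb9 replace their constitutive counterparts. The transporter formed by the Tap1 and Tap2 proteins carries the peptides into the endoplasmic reticulum, where tapasin, the product of Tapbp, helps to place them on a heavy chain bound to beta-2-microglobulin, the product of B2m. In the healthy retina these molecules are known to be scarce, and microglia, the resident immune cells of the tissue, are a main source of them once the retina is injured.

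According to GENCODE M21 on GRCm38, 9 of the 10 genes lie on chromosome 17 between positions 33915899 and 36032855, a span of 2.12 Mb that holds the mouse MHC. B2m is on chromosome 2, at chr2:122147686-122153083. Psmb9, Tap1, Psmb8 and Tap2 form a block of 34.3 kb at chr17:34181987-34216321. Within it, Psmb9 is read from the minus strand and Tap1 from the plus strand, and the annotated genes overlap by 212 bases. The libraries were stranded, but the strand setting of the counting is not given in the sources used here, so reads in that overlap may have been counted for either gene or for neither.

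The stretch directly before the start of a gene carries the sites through which class I genes are regulated, and it is shown here for the light chain, 3 heavy chains and the gene that shares its start region with Psmb9. The 180 bases before the start, from RefSeq on GRCm38.p6, are written 5′ to 3′ on the strand of the gene. Capitals mark matches on either strand to a kappaB site (GGGNNTTCC), an interferon regulatory factor core (AANNGAAA), a gamma-activated site (TTCNNNGAA), a CRE core (TGACG) or a CCAAT box (CCAAT).
B2m (chr2:122147507-122147686, plus strand): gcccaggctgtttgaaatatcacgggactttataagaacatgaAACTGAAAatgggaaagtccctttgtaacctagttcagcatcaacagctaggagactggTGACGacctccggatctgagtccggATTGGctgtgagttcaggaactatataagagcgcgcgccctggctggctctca
H2-K1 (chr17:34000348-34000527, minus strand): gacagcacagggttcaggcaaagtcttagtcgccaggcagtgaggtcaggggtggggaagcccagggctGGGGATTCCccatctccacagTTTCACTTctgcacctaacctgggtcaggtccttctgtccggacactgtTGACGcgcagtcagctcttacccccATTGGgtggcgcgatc
H2-D1 (chr17:35262914-35263093, plus strand): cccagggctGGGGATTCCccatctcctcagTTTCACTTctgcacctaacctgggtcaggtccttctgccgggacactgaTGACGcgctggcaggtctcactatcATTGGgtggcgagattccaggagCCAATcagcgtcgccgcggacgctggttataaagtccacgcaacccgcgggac
H2-Q4 (chr17:35379437-35379616, plus strand): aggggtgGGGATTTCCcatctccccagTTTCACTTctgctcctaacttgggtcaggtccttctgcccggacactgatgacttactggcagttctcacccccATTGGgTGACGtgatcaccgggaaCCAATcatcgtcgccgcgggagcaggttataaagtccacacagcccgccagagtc
Tap1 (chr17:34187376-34187555, plus strand): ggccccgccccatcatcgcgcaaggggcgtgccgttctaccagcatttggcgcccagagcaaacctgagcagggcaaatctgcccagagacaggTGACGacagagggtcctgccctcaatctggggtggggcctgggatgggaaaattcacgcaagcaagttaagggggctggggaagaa
The 3 heavy chain promoters shown were close copies of each other, and that of H2-T23 was not compared. Between the kappaB match and the nearest CCAAT match, H2-K1 and H2-D1 had 89 of 100 bases in common, H2-K1 and H2-Q4 86 of 99 aligned bases, and H2-D1 and H2-Q4 87 of 99. RefSeq windows of 250 bases before and 50 bases from the start were given for 9 of the 10 genes, all but Tap2. Among these 9, kappaB matches were in 3 (H2-K1, H2-D1 and H2-Q4) and interferon regulatory factor cores in 5, the same 3 with H2-T23 and B2m. CRE cores were in 6, CCAAT boxes in 8, and a gamma-activated site was in that of Psmb8 alone. Among all 32851 RefSeq windows of this length, the shares were 5.82% for kappaB, 23.9% for the interferon regulatory factor core, 20.8% for the CRE core, 37.4% for CCAAT and 8.3% for the gamma-activated site. Both the kappaB and the interferon regulatory factor letters were thus within the windows of H2-K1, H2-D1 and H2-Q4. The Tap1 and Psmb9 windows shared 275 of their 300 bases on opposite strands, with 226 bases between both starts. A match of letters does not show that a factor bound there.

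Between 26171887 and 30201517 reads per mouse were counted on genes. Levels are given as CPM, the reads of a gene scaled to the size of its library with TMM factors, and a gene was called at an adjusted p-value under 0.05 in edgeR's quasi-likelihood test over 15196 genes. The study's own cut-off, a log2 fold change of 2 in either direction, is given beside it. Lens genes differed between libraries in a way the groups do not explain. The summed level of 8 lens genes was 9098 CPM in vehicle-treated mouse 2, 14.1 and 6.32 CPM in vehicle-treated mice 1 and 3, 104 to 397 CPM in naïve mice and 1.01 to 271 CPM in TD139-treated mice, so the counts of called members and their median are also given without that mouse. The rod genes that define a retina were abundant in every library, with a summed level of at least 45659 CPM over 10 genes.

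Light exposure was followed by higher levels of nearly the whole set, and TD139-treated mice had lower levels of every member than vehicle-treated mice. In vehicle-treated against naïve mice, 8 of the 10 genes rose, by 1.47-fold for Tapbp to 7.02-fold for Psmb9, whereas 4.91% of all tested genes were called higher. B2m and Tap2 did not pass the test, although no naïve mouse reached the level of any vehicle-treated mouse for either gene. Under TD139, 10 of 10 genes fell relative to vehicle, with log2 fold changes from −0.78 for Tapbp to −2.69 for Psmb9, whereas 16.2% of all tested genes were called lower. These comparisons share the vehicle-treated mice, so they are not independent of each other. In TD139-treated against naïve mice, edgeR called 0 of the 10 genes in either direction, where 2.72% of all genes were called higher and 2.38% lower. In that comparison 1 gene, Tap2, had an unadjusted p-value under 0.05, as 14.1% of all genes did in the lower direction, DESeq2 called 0 of the 10 genes, where it called 9.82% of all genes higher and 7.94% lower, and limma voom with sample quality weights called 2, Tap2 and Tapbp, both lower, where it called 16.2% of all genes lower and 19.9% higher.

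**Figure D1:**
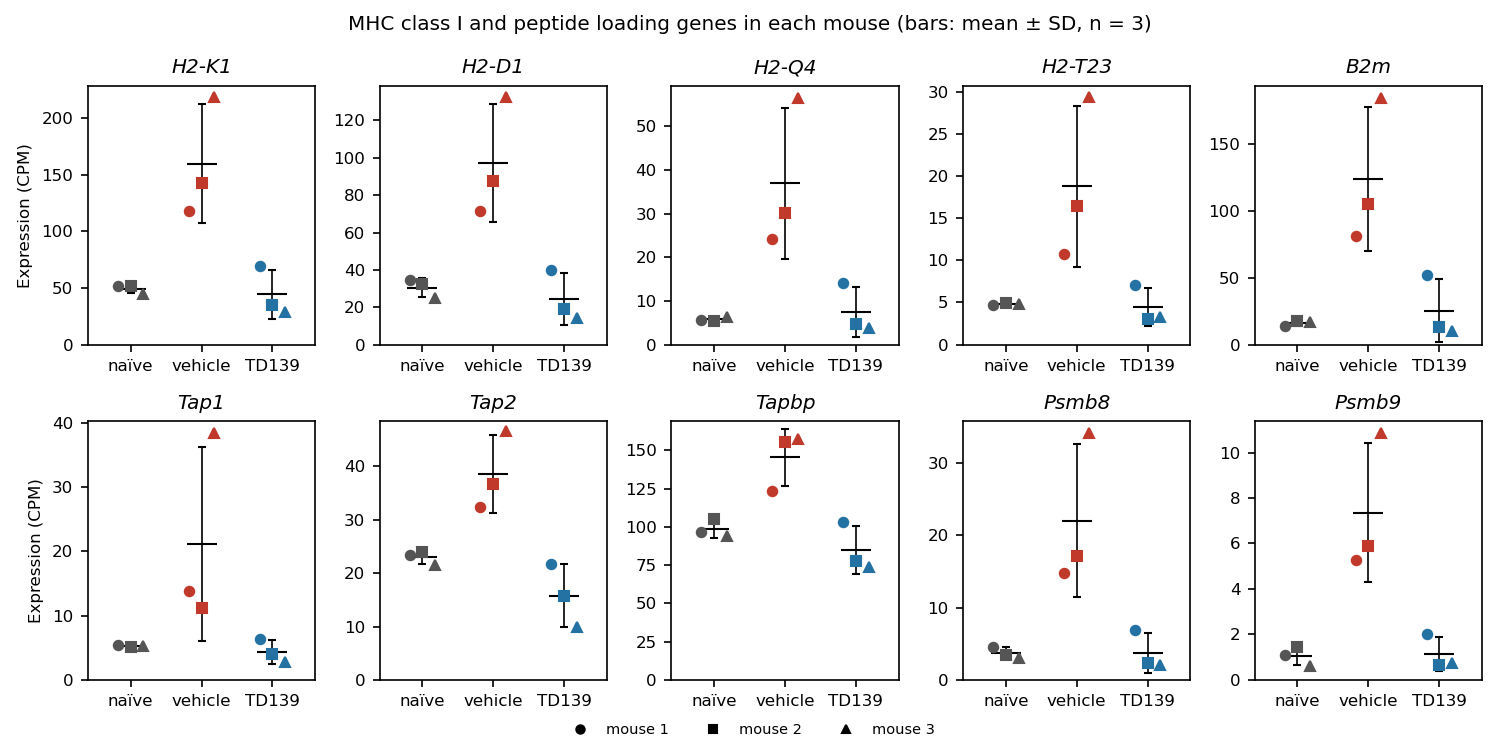
Expression of the 10 genes in each mouse, in CPM on axes that start at 0. Points are single mice, with the shape giving the mouse number, and the bars are the mean ± SD of 3 mice. The vehicle-treated mice lie above all naïve and all TD139-treated mice in every panel, and the highest TD139-treated mouse is mouse 1 in all of them.

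In vehicle-treated mice, the members both called and past the cut-off of 2 were H2-Q4, Psmb8 and Psmb9, 3 of 10 where 1.24% of all genes were called higher past it. B2m, at 2.93, was also past the cut-off of 2 but was not called. In the TD139 against vehicle comparison they were H2-Q4, H2-T23, B2m, Tap1, Psmb8 and Psmb9, 6 of 10 where 1.53% of all genes were called lower past it. The members had a median log2 fold change of 1.97 for vehicle against naïve, −2.16 for TD139 against vehicle and −0.13 for TD139 against naïve. Over all tested genes the medians were −0.0018, −0.016 and −0.0023 in the same order. All 10 genes separated the vehicle-treated from the naïve mice without overlap, as 16.7% of all genes did in that direction, and all 10 separated the TD139-treated from the vehicle-treated mice, as 25.4% did.

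**Figure D2:**
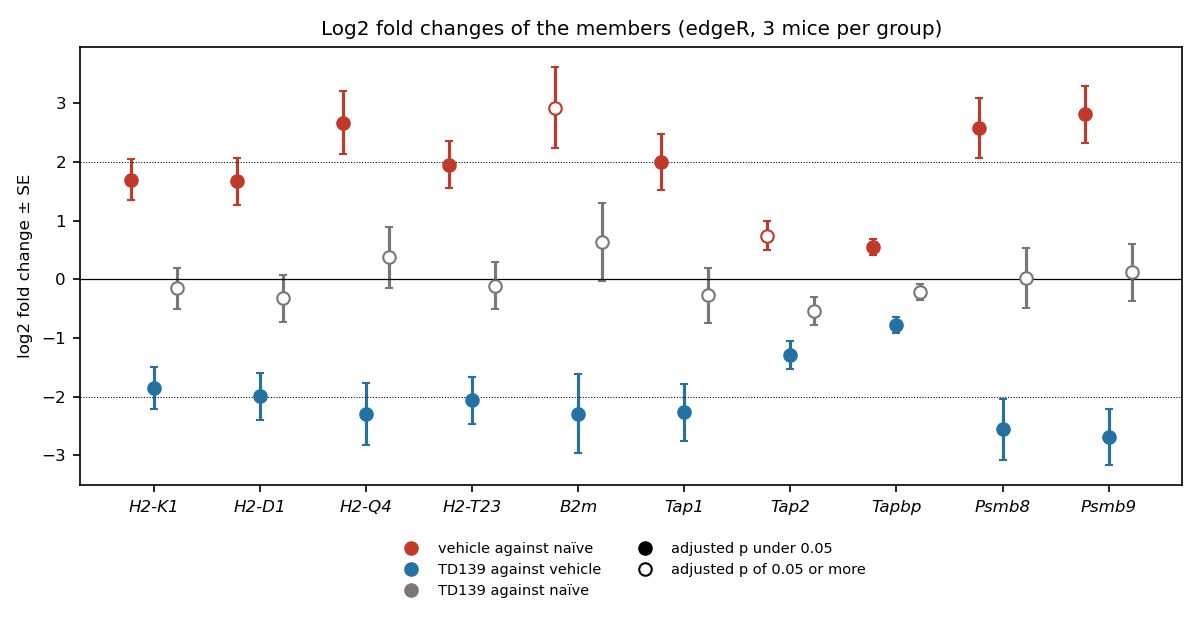
Log2 fold changes with their standard errors for each gene in the 3 comparisons, from one edgeR fit of 9 mice. Filled circles have an adjusted p-value under 0.05 and dotted lines mark log2 fold changes of 2 and −2. The TD139-treated against naïve values lie between −0.54 and 0.64, all with open circles, and Tap2 and Tapbp have the smallest changes in both other comparisons.

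Per length of transcript, the order of the genes in the unexposed retina was led by Tapbp and H2-K1. In naïve mice, Tapbp was at 34.0 ± 2.03 CPM per kb (SD, n = 3) and H2-K1 at 30.5 ± 2.46. Their ranges, 32.4 to 36.3 and 27.6 to 32.0, did not overlap, but they lay close to each other. B2m followed at 18.9 ± 2.44 CPM per kb and H2-D1 at 14.5 ± 2.40, with ranges that overlapped by a small margin. Tap2 was at 6.67, H2-T23 at 3.29, H2-Q4 at 3.23, Psmb8 at 2.26 and Tap1 at 1.80 CPM per kb, and the lowest was Psmb9 at 0.77 ± 0.30. H2-T23 and H2-Q4 overlapped, as did Psmb8 and Tap1.

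The order changed in the vehicle-treated mice. B2m was then first at 144 ± 62.6 CPM per kb and H2-K1 second at 98.7 ± 32.3, with overlapping ranges, while Tapbp at 50.2 ± 6.52 and H2-D1 at 46.2 ± 15.0 followed and also overlapped. Psmb9 stayed the lowest at 5.43 ± 2.26, overlapping with Tap1 at 7.16 ± 5.10. In TD139-treated mice B2m, Tapbp and H2-K1 stood close together at 29.4 ± 27.2, 29.3 ± 5.47 and 27.4 ± 13.5 CPM per kb. The SD of B2m there was nearly as large as its mean, since TD139-treated mouse 1 had a far higher level than mice 2 and 3.

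**Figure D3:**
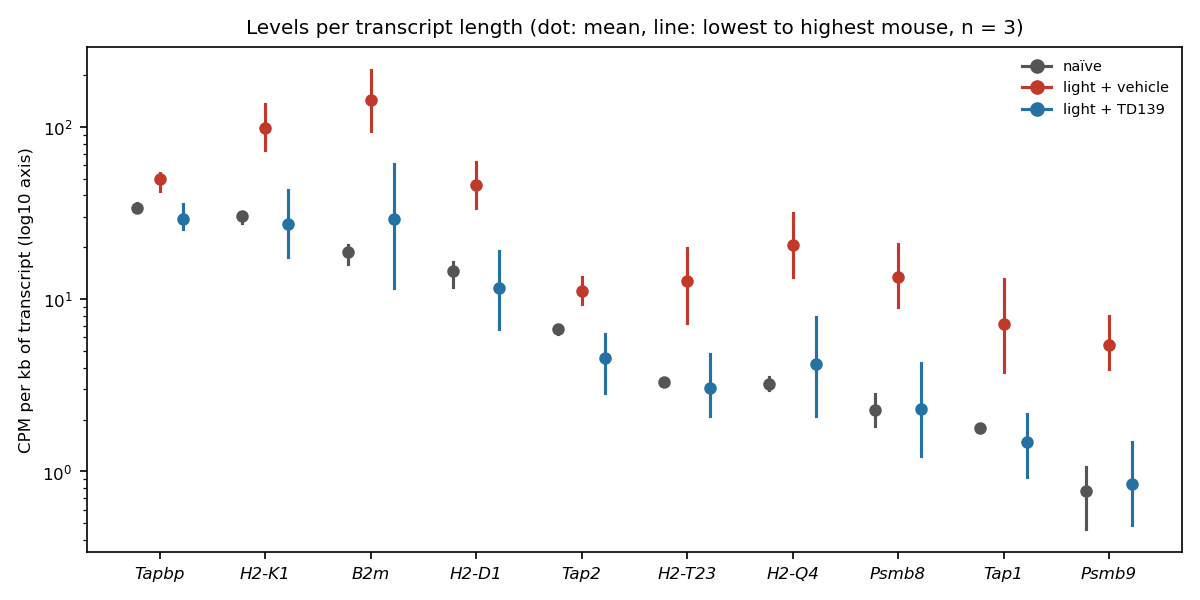
Level of each gene per kb of its transcript in the 3 groups, on a log10 axis, with the genes in the order of their naïve means. Dots are means and lines run from the lowest to the highest of 3 mice. B2m moves from the third place in naïve mice at 18.9 CPM per kb to first in vehicle-treated mice at 144.

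H2-K1 and H2-D1 encode the classical heavy chains, which present peptides to cytotoxic T cells. H2-K1 was at 51.9, 51.4 and 44.8 CPM in the naïve mice 1 to 3, at 118, 143 and 219 CPM in the vehicle-treated mice and at 69.4, 35.4 and 28.5 CPM in the TD139-treated mice. H2-D1 was at 34.4, 32.2 and 24.8 CPM in naïve, at 71.5, 87.5 and 132 CPM in vehicle-treated and at 40.2, 18.9 and 14.03 CPM in TD139-treated mice. For both genes the vehicle-treated mice stood above every other mouse, and the naïve range lay inside the range of the TD139-treated mice. The log2 fold change of H2-K1 was 1.70 in vehicle-treated against naïve mice (standard error 0.35, adjusted p = 0.0304) and −1.85 for TD139 against vehicle (standard error 0.35, adjusted p = 0.00888). For H2-D1 the log2 fold changes were 1.67 (standard error 0.40, adjusted p = 0.0458) and −1.99 (standard error 0.41, adjusted p = 0.0110). The call of the H2-D1 rise was lost in 11 of 20 alternative settings, with adjusted p-values up to 0.140 in edgeR.

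H2-Q4 and H2-T23 are non-classical heavy chain genes. The product of H2-T23, known as Qa-1, displays leader peptides of other class I chains to receptors on natural killer cells. H2-Q4 was at 5.72, 5.31 and 6.34 CPM in the naïve mice, 24.2, 30.0 and 56.4 CPM in the vehicle-treated mice and 14.1, 4.73 and 3.75 CPM in the TD139-treated mice. H2-T23 was at 4.69, 4.97 and 4.87 CPM in naïve, 10.7, 16.4 and 29.3 CPM in vehicle-treated and 7.08, 3.10 and 3.32 CPM in TD139-treated mice. Vehicle-treated mouse 3 was the highest and TD139-treated mouse 1 lay above all naïve mice for both, while TD139-treated mice 2 and 3 lay below all naïve mice. H2-Q4 rose by 2.67 on the log2 scale in vehicle-treated mice (standard error 0.54, adjusted p = 0.0289), the largest value of the 4 heavy chains, and fell by 2.29 with TD139 relative to vehicle (standard error 0.53, adjusted p = 0.0148). H2-T23 rose by 1.95 (standard error 0.40, adjusted p = 0.0254) and fell by 2.06 (standard error 0.40, adjusted p = 0.00725).

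The makeup of the heavy chain reads is a description with no test. Of the reads of the 4 heavy chain genes, H2-K1 took 53.7 to 55.4% in the naïve group, 50.1 to 52.7% in the vehicle group and 53.1 to 57.4% in the TD139 group. The share of H2-Q4 was 5.66 to 7.85% in naïve mice and 10.8 to 12.9% in vehicle-treated mice. In TD139-treated mice it was 10.8% in mouse 1 and 7.61% and 7.58% in mice 2 and 3. For H2-Q4, TD139-treated mouse 1 thus lay beside the lowest vehicle-treated mouse, and the other TD139-treated mice lay within the naïve range.

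Class I heavy chain genes are near-identical copies, and the reads were mapped to mm10, which is built from C57BL/6J mice, whose MHC haplotype differs from that of BALB/c. How reads that match several copies were counted is not given in the sources used here. H2-L, a class I gene that BALB/c mice carry and C57BL/6J mice lack, was at 0 counts in every mouse, as were H2-Q6, H2-Q7, H2-Q8, H2-Q9 and H2-T22. Reads from H2-L and H2-D1 cannot be told apart here, so the values of single heavy chain genes are uncertain.

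B2m encodes beta-2-microglobulin, the invariant light chain that class I heavy chains need to reach the cell surface. B2m was at 13.8, 17.7 and 17.2 CPM in the naïve mice, at 81.3, 105 and 184 CPM in the vehicle-treated mice and at 52.2, 13.5 and 10.04 CPM in the TD139-treated mice. The groups of vehicle-treated and naïve mice lay far apart, and TD139-treated mouse 1 lay between them while the other TD139-treated mice were below all naïve mice. Against naïve mice the log2 fold change of vehicle-treated mice was 2.93, the largest of the 10 genes, but with a standard error of 0.69 its adjusted p was 0.0531 in edgeR. DESeq2, limma voom and a correction for GC content and transcript length put it under the threshold, with an adjusted p of 0.0397 for the last, but it was not called in 14 of 20 alternative settings, with adjusted p-values up to 0.152. Relative to vehicle, B2m fell with TD139 by 2.29 (standard error 0.67, adjusted p = 0.0406). That call was lost in 12 of 20 alternative settings, with adjusted p-values up to 0.128, and among them in the correction for length and GC content at 0.0743.

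The ratio of B2m reads to the reads of H2-K1 and H2-D1 together is independent of library size. It was 0.160, 0.212 and 0.247 in the naïve mice, 0.429, 0.457 and 0.525 in the vehicle-treated mice and 0.477, 0.248 and 0.236 in the TD139-treated mice. Reads of the light chain were thus more numerous relative to the classical heavy chains in every vehicle-treated mouse and in TD139-treated mouse 1 than in any naïve mouse, and TD139-treated mice 2 and 3 lay close to the highest naïve mouse.

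Tap1 and Tap2 encode both chains of the peptide transporter, and Tapbp encodes tapasin. Tap1 was at 5.49, 5.13 and 5.31 CPM in the naïve mice, 13.8, 11.2 and 38.5 CPM in the vehicle-treated mice and 6.38, 4.07 and 2.73 CPM in the TD139-treated mice. Tap2 was at 23.3, 24.01 and 21.6 CPM in naïve, 32.5, 36.7 and 46.6 CPM in vehicle-treated and 21.7, 15.7 and 9.88 CPM in TD139-treated mice. Vehicle-treated mouse 3 stood apart for Tap1, at 3.45 times the lowest mouse of its group, and the Tap2 values of that group differed by 1.44-fold. Tapbp was at 96.7, 105 and 93.8 CPM in naïve, 124, 155 and 157 CPM in vehicle-treated and 103, 77.5 and 73.9 CPM in TD139-treated mice. Every vehicle-treated mouse exceeded every naïve mouse for these genes, but by much smaller factors for Tap2 and Tapbp than for Tap1.

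In vehicle-treated against naïve mice Tap1 rose by 1.99 on the log2 scale (standard error 0.48, adjusted p = 0.0407) and Tapbp by 0.56 (standard error 0.14, adjusted p = 0.0343). Without vehicle-treated mouse 3 the value of Tap1 was 1.23 (adjusted p = 0.0694). The call of the Tap1 rise was lost in 10 of 20 alternative settings, with adjusted p-values up to 0.132 in edgeR. Tap2 was higher by 0.75 without passing the test (standard error 0.24, adjusted p = 0.0791). With TD139 relative to vehicle, Tap1 fell by 2.27 (standard error 0.48, adjusted p = 0.0107), Tap2 by 1.29 (standard error 0.24, adjusted p = 0.00652) and Tapbp by 0.78 (standard error 0.14, adjusted p = 0.00585). Of the 10 genes, Tap2 had the lowest value in TD139-treated against naïve mice, −0.54 on the log2 scale (standard error 0.24, unadjusted p = 0.0477, adjusted p = 0.165). Without TD139-treated mouse 1 it was −0.84 with an adjusted p of 0.0361, and in limma voom −0.90 with an adjusted p of 0.00541.

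Psmb8 and Psmb9 encode catalytic subunits of the immunoproteasome, which yields peptides with ends that fit the class I groove. Psmb8 was at 4.57, 3.47 and 3.01 CPM in the naïve mice, 14.7, 17.1 and 34.1 CPM in the vehicle-treated mice and 6.90, 2.30 and 2.02 CPM in the TD139-treated mice. Psmb9 was the scarcest member, with 28, 38 and 17 reads in the naïve mice, 148, 167 and 323 in the vehicle-treated mice and 54, 19 and 19 in the TD139-treated mice. TD139-treated mouse 1 was again above the naïve mice. Psmb9 rose by 2.81 on the log2 scale in vehicle-treated mice (standard error 0.48, adjusted p = 0.0171), with the lowest adjusted p of the set, and fell by 2.69 with TD139 relative to vehicle (standard error 0.48, adjusted p = 0.00598). Psmb8 rose by 2.58 (standard error 0.51, adjusted p = 0.0263) and fell by 2.56 (standard error 0.51, adjusted p = 0.00921). In TD139-treated against naïve mice the log2 fold changes were 0.13 for Psmb9 (standard error 0.49, adjusted p = 0.891) and 0.02 for Psmb8 (standard error 0.51, adjusted p = 0.982).

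Each immunoproteasome subunit takes the place of one constitutive subunit, Psmb8 that of Psmb5, Psmb9 that of Psmb6 and Psmb10 that of Psmb7, so their reads were set against each other within a mouse, without any scaling for library size or transcript length. Psmb8/Psmb5 was 0.283, 0.225 and 0.242 in the naïve mice, 1.18, 1.00 and 2.13 in the vehicle-treated mice and 0.626, 0.233 and 0.208 in the TD139-treated mice. Every vehicle-treated mouse was above every other mouse. Per kb of transcript, the mean level of Psmb8 in vehicle-treated mice, 13.5 CPM per kb, was below that of Psmb5, 16.9 CPM per kb. Psmb8 ranged from 9.05 to 21.0 CPM per kb in these mice, and vehicle-treated mouse 3, the highest, exceeded that Psmb5 mean. The order of the means depended on the transcript lengths used, 1.628 kb for Psmb8 and 0.899 kb for Psmb5. Without scaling for length, Psmb8 reads equalled or exceeded those of Psmb5 in every vehicle-treated mouse. Psmb9/Psmb6 ran from 0.00380 to 0.00765 over the naïve mice, from 0.0299 to 0.0563 over the vehicle-treated mice and from 0.00527 to 0.0149 over the TD139-treated mice, so Psmb6 reads outnumbered those of Psmb9 in every mouse. Psmb10/Psmb7 was 0.116 to 0.131, 0.205 to 0.311 and 0.0903 to 0.148 in the same order.

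On the log2 scale, the vehicle-treated mice differed from the naïve mice by 2.45 for Psmb8/Psmb5, 2.83 for Psmb9/Psmb6 and 0.97 for Psmb10/Psmb7. TD139-treated mice differed from vehicle-treated mice by −2.12, −2.25 and −1.04 in the same order. In each of these 6 comparisons the groups did not overlap, and the exact two-sided permutation test gave p = 0.1, the smallest value that 3 against 3 mice allow (adjusted p = 0.15 over 9 tests). TD139-treated and naïve mice overlapped for every ratio, with log2 differences of 0.33, 0.58 and −0.07 and exact permutation p-values of 0.9, 0.4 and 0.7 (adjusted p = 0.9, 0.514 and 0.788). The constitutive subunits Psmb5, Psmb6 and Psmb7 had log2 fold changes of 0.05, −0.02 and 0.09 in vehicle-treated against naïve mice and adjusted p-values of 0.857, 0.930 and 0.633. With TD139 relative to vehicle all 3 fell, by 0.58, 0.55 and 0.51 (adjusted p = 0.0209, 0.0065 and 0.0081).

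**Figure D4:**
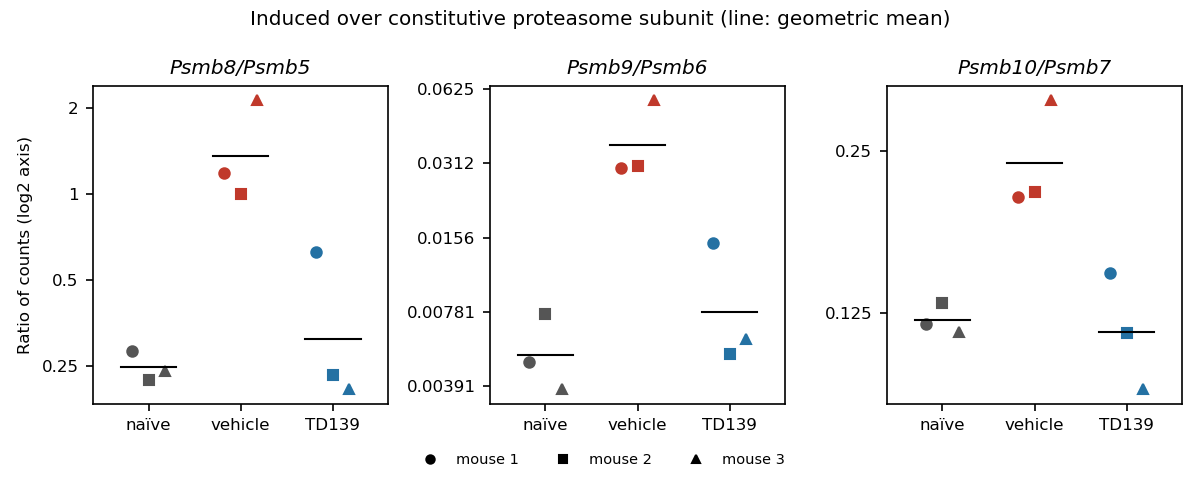
Reads of each induced subunit divided by those of the constitutive subunit it replaces, on a log2 axis. Points are mice and the line is the geometric mean of 3. The vehicle-treated mice are the highest in each panel, with Psmb8/Psmb5 between 1.00 and 2.13, and TD139-treated mouse 1 is the highest of its group at 0.626.

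The spread within a group followed the same mice for the whole set. Vehicle-treated mouse 3 had the highest level of its group for 10 of 10 genes, and so had TD139-treated mouse 1 in its own group. TD139-treated mouse 1 was above every naïve mouse for 8 of the genes and within their range for 2, while TD139-treated mice 2 and 3 were each below every naïve mouse for 9 of the genes and within their range for 1. The mean position of the TD139-treated group near the naïve group is therefore that of 1 mouse above it and 2 mice below it. The summed level of the 4 heavy chain genes was 131 CPM in TD139-treated mouse 1 and 62.2 and 49.6 CPM in mice 2 and 3, beside 80.7 to 96.7 CPM in naïve mice. Between the highest and lowest mouse of a group, B2m differed by 1.28-fold in naïve, 2.26-fold in vehicle-treated and 5.20-fold in TD139-treated mice.

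The calls against naïve mice depended on single mice. Without naïve mouse 1, 2 or 3, or without vehicle-treated mouse 3, edgeR called 0 of the 10 genes in vehicle-treated against naïve mice, although all 10 were higher with an unadjusted p under 0.05 in each of these fits, as they were with 9 mice, where 14.4% of all genes were. The share of all genes called higher fell as well, from 4.91% to 0.402%, 0.00647%, 0.907% and 0.423% in the same order. Without vehicle-treated mouse 1 there were 4 calls (H2-T23, Tapbp, Psmb8 and Psmb9), and without vehicle-treated mouse 2, the mouse with the lens genes, 6, at a median of 2.17 on the log2 scale. In these fits 1.42% and 4.05% of all genes were called higher. The TD139-treated mice enter this comparison through the common fit, and without mouse 1, 2 or 3 of that group there were 10, 6 and 10 calls, where 7.56%, 4.30% and 4.03% of all genes were called higher. Over the 9 fits with 1 mouse left out, the median of the set on the log2 scale was between 1.44 and 2.24.

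For TD139 relative to vehicle, 9 or 10 genes were called with any mouse left out other than TD139-treated mouse 2, where 5.62% to 19.0% of all genes were called lower. Without that mouse 6 were called, and the calls of H2-D1, H2-Q4, B2m and Tap1 were lost, with 4.91% of all genes called lower. Without vehicle-treated mouse 2 there were 9, all but B2m, at a median of −2.27 and with 12% of all genes called lower. On the linear scale, the fold changes of single genes moved by over 1.5 times when 1 mouse was left out. Without TD139-treated mouse 1 the log2 fold changes were −3.39 for B2m, −3.12 for H2-Q4, −3.35 for Psmb8 and −3.38 for Psmb9, and without vehicle-treated mouse 3 that of Tap1 was −1.51. The median log2 fold change of the set was between −2.60 and −1.65 in these fits.

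**Figure D5:**
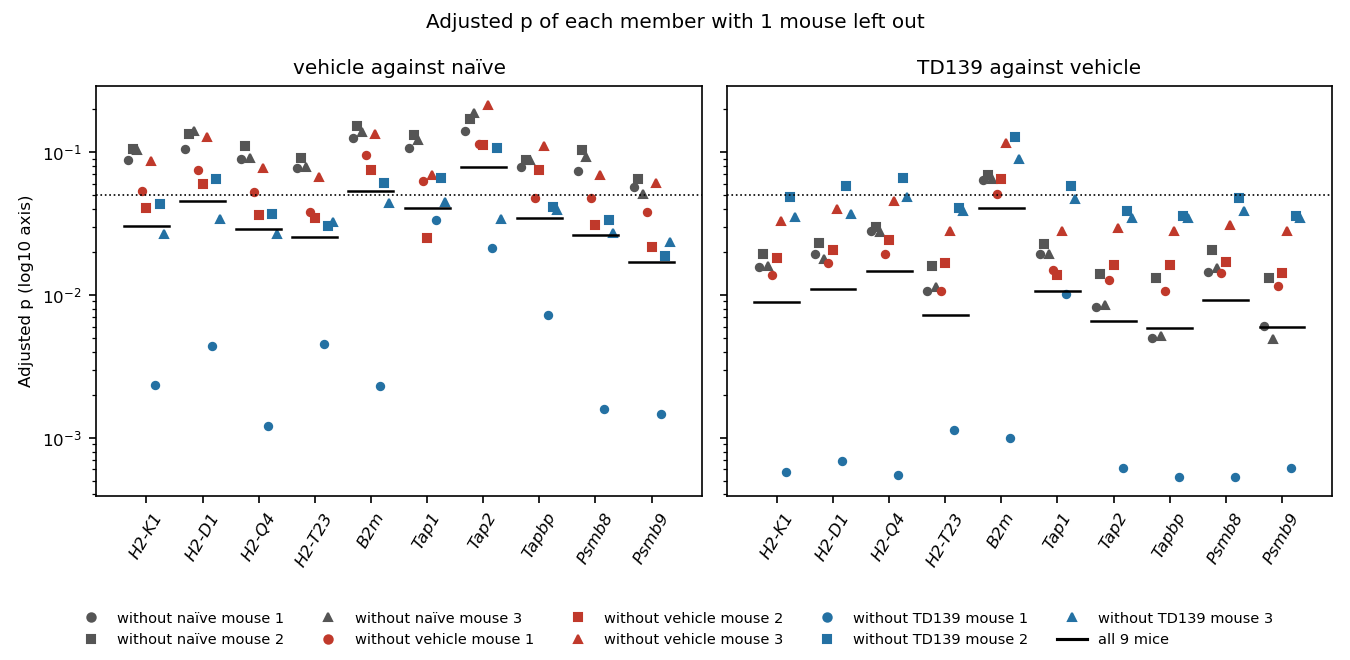
Adjusted p of each gene in edgeR with 1 mouse left out at a time, on a log10 axis, for both comparisons that involve vehicle-treated mice. Colours give the group of the mouse left out, black lines the fit of 9 mice, and the dotted line 0.05. In the left panel every point without a naïve mouse lies above 0.05, and in the right panel the points without TD139-treated mouse 2 are above it for H2-D1, H2-Q4, B2m and Tap1.

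Fold changes of TD139-treated mice followed transcript length over the whole table, and the TD139-treated libraries also had more reads assigned to no gene, 21.3, 22.8 and 22.6% against 16.5 to 19.9% in the other mice. The part of either in the lower levels with TD139 was not tested beyond the correction given here. Across 15066 genes, which are not independent replicates, Spearman's rank correlation of the log2 fold change with length was 0.50 (TD139 against vehicle), 0.61 (TD139 against naïve) and −0.10 (vehicle against naïve). The transcripts of the members ran from 860 bases for B2m to 3442 bases for Tap2. After correction of each mouse for length and GC content, 9 of the 10 genes remained called lower with TD139 relative to vehicle, at a median of −1.74 on the log2 scale, where 7.71% of all genes were called lower and 13.9% higher, against 16.2% and 17.2% without the correction. Likewise, 9 were called higher in vehicle-treated against naïve mice, with a median of 1.80, where 6.28% of all genes were called higher and 13.5% lower, against 4.91% and 2.89% without it. Against naïve mice the median of the TD139-treated mice changed sign, from −0.13 to 0.14, and edgeR called 0 of the 10 genes, with 0 of them at an unadjusted p under 0.05, where 0% of all genes were called in either direction.

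Markers of microglia and macrophages moved with the set. All 18 of these markers were tested. In vehicle-treated against naïve mice 11 rose, where 4.91% of all genes were called higher, and 14 fell with TD139 relative to vehicle, where 16.2% were called lower. The median log2 fold changes of the markers were 2.58 and −2.23. Their summed level was 84.0 to 88.5 CPM in naïve mice and 489, 359 and 660 CPM in vehicle-treated mice 1 to 3. In TD139-treated mice it was 221 CPM in mouse 1 and 71.8 and 61.6 CPM in mice 2 and 3, so the highest mouse of each light-exposed group was the same as for the members, whereas the lowest vehicle-treated mouse was mouse 2 for the markers and mouse 1 for 9 of the 10 members. More cells of a type and more RNA per cell cannot be told apart in RNA of whole retinas, and the part of these cells in the class I levels was not tested. Genes of Müller glia, the radial support cells of the retina, were also higher, with 9 genes summing to 4981 to 5730 CPM in the naïve group, 7616 to 8349 CPM in the vehicle group and 5235 to 6933 CPM in the TD139 group. Of these, 5 rose in vehicle-treated mice and 4 fell with TD139 relative to vehicle, where 4.91% and 16.2% of all genes were so called. Among the 5 was Apoe, at a mean of 713 CPM in naïve and 1914 CPM in vehicle-treated mice. Glul and Rlbp1, with log2 fold changes of 0.16 and 0.32 against naïve mice (adjusted p = 0.325 and 0.205), were not called, nor were Kcnj10 and Gfap.

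Rod genes moved the other way, with 10 genes summing to 78346 to 89897 CPM in the naïve group, 45659 to 63747 CPM in the vehicle group and 64166 to 79779 CPM in the TD139 group. Of these, 8 fell in vehicle-treated mice, where 2.89% of all genes were called lower, and 5 rose with TD139 relative to vehicle, where 17.2% were called higher. Most markers of the lymphocytes that read class I molecules were at or near 0. The T cell list summed to at most 4.27 CPM in any mouse, with Cd3e and Cd3g at 0 counts in all 9 mice. Lck, the 1 T cell marker tested, was at mean levels of 1.35, 2.44 and 1.05 CPM in naïve, vehicle-treated and TD139-treated mice. Its log2 fold changes were 0.85 for vehicle against naïve and −1.22 for TD139 against vehicle (adjusted p = 0.238 and 0.0560). Of the natural killer cell list Ncr1, Klrd1, Gzma, Gzmb and Prf1 were at 0 in all mice. The natural killer cell list summed to 8.14 to 13.3 CPM, most of it from Eomes, which is also a gene of retinal ganglion cells, and the B cell list to 1.06 to 2.05 CPM with Ms4a1 and Blk at 0. A count of 0 does not exclude a level below the 3 reads taken as the limit of detection. Monocyte and neutrophil markers summed to 1.06 to 1.27, 2.82 to 6.08 and 0.83 to 2.41 CPM in naïve, vehicle-treated and TD139-treated mice. The highest sum was that of vehicle-treated mouse 2, the mouse with the lens genes, where Plac8 alone was at 2.61 CPM, against 0.036 and 0 CPM in vehicle-treated mice 1 and 3. Of the 2 tested, 1, Csf3r, rose with light, where 4.91% of all genes were called higher. Retinal pigment epithelium genes, from the layer behind the retina, summed to 132 to 282, 234 to 502 and 139 to 206 CPM, and endothelial cell and pericyte genes to 198 to 283, 363 to 505 and 258 to 494 CPM, in the same order.

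Those of the other class I genes that were called had the direction of the members. Of 27 other class I and class I-like heavy chain genes in the files, 13 were tested and 10 were at 0 counts in all mice. In vehicle-treated against naïve mice 6 rose, where 4.91% of all genes were called higher, and 7 fell with TD139 relative to vehicle, where 16.2% were called lower. The medians on the log2 scale were 1.21 and −1.33. The genes that rose were H2-Q1, H2-Q2, H2-Q5, H2-Q10, H2-T24 and H2-M3. H2-Q10 was at 2.27, 3.54 and 4.11 CPM in the naïve mice, 7.97, 8.05 and 15.2 CPM in the vehicle-treated mice and 5.26, 3.48 and 2.25 CPM in the TD139-treated mice. Its log2 fold changes were 1.65 (adjusted p = 0.0269) and −1.50 (adjusted p = 0.0122). The most abundant of the list, Hfe, which encodes a regulator of iron uptake, was at 33.6 to 42.2 CPM in naïve and 25.0 to 30.6 CPM in vehicle-treated mice, with log2 fold changes of −0.43 against naïve mice (adjusted p = 0.118) and 0.26 for TD139 against vehicle (adjusted p = 0.234). Fcgrt, the neonatal Fc receptor that recycles antibodies, had a log2 fold change of 1.12 against naïve mice (adjusted p = 0.140) and fell by 1.33 against vehicle-treated mice (adjusted p = 0.0467). Mr1, which presents vitamin metabolites, had log2 fold changes of 1.07 and −0.67 (adjusted p = 0.0526 and 0.0989).

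The general chaperones and peptidases of the pathway had median log2 fold changes near 0. Of 10 tested genes, Tapbpl, a tapasin relative that edits peptides, rose by 0.86 in vehicle-treated mice (adjusted p = 0.0346) and fell by 0.76 with TD139 (adjusted p = 0.0186). Npepps, a cytosolic aminopeptidase, fell by 0.41 in vehicle-treated mice (adjusted p = 0.0375) and rose by 0.48 with TD139 (adjusted p = 0.00777). In the latter comparison the peptidases Lnpep and Tpp2 also rose, by 1.70 and 0.55 (adjusted p = 0.0109 and 0.0145), and Sec61a1, of the channel into the endoplasmic reticulum, fell by 0.32 (adjusted p = 0.0197). The endoplasmic reticulum chaperones Calr, Hspa5 and Canx had log2 fold changes of 0.08, 0.06 and 0.06 with light and −0.03, 0.29 and 0.21 for TD139 against vehicle, with adjusted p-values of 0.174 or more. The median log2 fold changes of the list were 0.07 and 0.09. With light, 1 of the 10 was called higher and 1 lower, where 4.91% and 2.89% of all genes were. With TD139 relative to vehicle, 3 were called higher and 2 lower, where 17.2% and 16.2% of all genes were.

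A list of 9 further proteasome genes included the constitutive subunits Psmb5, Psmb6 and Psmb7. Among the 9, Psmb10, the remaining catalytic subunit of the immunoproteasome, was called higher in vehicle-treated mice, by 1.08 (adjusted p = 0.0296), and fell by 1.54 with TD139 (adjusted p = 0.00568). It was at 16.8, 15.7 and 12.4 CPM in the naïve mice, 24.9, 28.4 and 42.0 CPM in the vehicle-treated mice and 14.7, 9.95 and 8.06 CPM in the TD139-treated mice. With TD139, 7 of the 9 fell and 1, Psme4, rose, where 16.2% of all genes were called lower and 17.2% higher. The assembly factor Pomp was among those that fell, by 0.60 (adjusted p = 0.0114), as were the constitutive subunits. Psmb6 and Psmb7 were also lower in TD139-treated than in naïve mice, at −0.57 and −0.42 on the log2 scale (adjusted p = 0.0406 and 0.0492), but with length and GC content corrected for, 0% of all genes were called in that comparison. Psme3, of a nuclear activator of the proteasome, had log2 fold changes of −0.01 and 0.04 (adjusted p = 0.921 and 0.745).

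Of 19 transactivators of class I genes and members of interferon signalling, 4 rose in vehicle-treated against naïve mice, where 4.91% of all genes were called higher. Nlrc5, the transactivator dedicated to class I genes, was at 0.46, 0.45 and 0.33 CPM in the naïve mice, 3.72, 2.26 and 5.71 CPM in the vehicle-treated mice and 1.00, 0.38 and 0.32 CPM in the TD139-treated mice. It rose by 3.22 on the log2 scale (standard error 0.49, adjusted p = 0.0127) and fell by 2.77 with TD139 (standard error 0.48, adjusted p = 0.00568), and the vehicle-treated mice did not overlap with the others. Irf1, an interferon-induced factor that binds class I promoters, rose by 1.37 (adjusted p = 0.0297) and fell by 1.45 (adjusted p = 0.00903). Irf8, a factor of the myeloid lineage that microglia depend on, rose by 2.58 (adjusted p = 0.0189) and fell by 1.79 (adjusted p = 0.0140). With TD139, 7 of the 19 genes fell and 2, Rfx5 and Creb1, rose, by 0.53 and 0.71 (adjusted p = 0.00949 and 0.0135), where 16.2% of all genes were called lower and 17.2% higher. The abundant genes Jak1 and Irf3 had log2 fold changes of −0.0039 and −0.46 in vehicle-treated against naïve mice (adjusted p = 0.986 and 0.204). The list's medians were 0.19 and −0.29.

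The interferon genes themselves had nearly no reads. Of 15 interferon and receptor genes in the files, 8 were at 0 counts in all 9 mice, among them Ifng and Ifnb1, Ifna4 had 1 read in 1 mouse, and the 6 receptor genes were tested. Ifnar2 and Il10rb, receptor chains for type I interferon and for the interleukin-10 family, rose by 1.04 and 1.05 in vehicle-treated mice (adjusted p = 0.0421 and 0.0216) and fell by 1.07 and 0.79 with TD139 (adjusted p = 0.0140 and 0.0150). Ifngr2, a chain of the interferon-gamma receptor, had a log2 fold change of 0.24 (adjusted p = 0.149) and fell by 0.36 (adjusted p = 0.0203). Ifnar1 and Ifngr1 had log2 fold changes of −0.14 and −0.15 against naïve mice (adjusted p = 0.323 and 0.418) and of 0.05 and −0.06 against vehicle-treated mice (adjusted p = 0.649 and 0.706). Of 14 genes on a list of class I receptors and related receptors, 8 were at 0 in all mice and 1 was tested, Lilrb4, an inhibitory receptor of myeloid cells that is not established as a class I receptor in mice. Lilrb4 was at 0, 0.11 and 0.04 CPM in the naïve mice, 2.79, 1.52 and 5.34 CPM in the vehicle-treated mice and 0.82, 0.03 and 0.04 CPM in the TD139-treated mice. It was called higher in vehicle-treated mice (adjusted p = 0.0254) and lower with TD139 (adjusted p = 0.0227), and since the naïve mice had at most 3 reads no fold is given.

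Other genes followed nearly the same course over the 9 mice. Likeness was measured as the root mean square difference between the centred log2 CPM of a gene and the mean course of the 10 members over 9 mice, among genes whose counts averaged 50 or more. The 5 genes outside the set with the smallest difference were Arhgdib at 0.20, and Pdlim4, Cfi, Clec2d and Ube2l6, each at 0.21. Cfi encodes complement factor I, Clec2d a lectin that is a ligand of a natural killer cell receptor, and Ube2l6 the interferon-induced enzyme that attaches the ubiquitin-like protein Isg15. For the members themselves the difference ran from 0.11 for H2-K1 to 0.68 for Tapbp, and 7 of the 10 members (Tapbp, Tap2, B2m, Psmb9, H2-Q4, Psmb8 and Tap1, at 0.28 or more) were further from the mean course of the set than these 5 genes were. Ube2l6 was at 2.80, 3.62 and 2.57 CPM in the naïve mice, 10.5, 12.4 and 23.6 CPM in the vehicle-treated mice and 5.82, 2.51 and 2.53 CPM in the TD139-treated mice.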

How the data were processed

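Poly(A) RNA of single retinal samples was made into stranded libraries and sequenced as single reads on 2 flow cells. Whole-number counts of reads per gene symbol from BaseSpace RNA Express, without scaling, were deposited by the authors, 1 table per mouse and run. Per the submitters' processing notes the build was mm10, and the annotation and strand setting of the counting are not given in the sources used here. Counts of both runs were summed per mouse. Reads without a feature (16.5 to 22.8%) and ambiguous reads (0.303 to 0.471%) were left out.

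Groups came from the sample labels. The main test was the quasi-likelihood F test of edgeR 4.0.16 (R 4.3.3, robust setting) on all 9 mice, after filterByExpr and TMM scaling. P-values were Benjamini-Hochberg adjusted over 15196 genes, and the standard error is the log2 fold change divided by the square root of F. CPM were computed from these counts, and likeness from log2 CPM with a prior count of 2. Subunit ratios were compared with the exact permutation test of scipy 1.17.1. Alternatives were DESeq2 1.42.0, limma 3.58.1 (voom with quality weights), RLE or library size alone, no filter, a mean of at least 50 counts, only the groups compared, a replicate block, single flow cells, a spline correction (4 degrees of freedom) for length and GC content, and each mouse left out in turn. Scripts were tested on simulated data.

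The members and gene lists were chosen with earlier results of these data known. Named are the members, up to 4 of the most abundant tested genes of each list, called genes where a list had at most 5, and the 5 genes most like the members. H2-Q1, H2-Q2, H2-Q5, H2-T24, H2-M3, Psme4, Rfx5 and marker genes or genes at 0 counts named outside this rule were chosen after their values were seen. A gene of the transactivator list that the rule names is not reported here. GENCODE M21 placed 98.36% of the 23420 symbols.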

Additional observations from a re-analysis of the deposited data

How the results depend on the processing

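With 1 mouse left out at a time, 0 to 10 members were called in vehicle-treated against naïve mice, 6 to 10 for TD139 against vehicle and 0 to 1 in TD139-treated against naïve mice, where the fit of 9 mice called 8, 10 and 0. With the replicate block, 2 members were called in vehicle-treated against naïve mice (Psmb8 and Psmb9) and 9 for TD139 against vehicle, without B2m, where 3.68% of all genes were called higher and 15.4% lower in the respective fits. Correlations of same-numbered mice gave no sign that the numbers pair the mice. They lay between −0.26 and 0.28, over 0.1 in 2 of 9 pairs, and 1 of 9 pairs had its highest correlation with its own number. The values were centred within groups of 3 mice, so this check cannot exclude a pairing. Limma voom called 2 members lower in TD139-treated against naïve mice, where it called 16.2% of all genes lower and 19.9% higher. In settings other than the block and the mice left out, 6 to 10 members were called in vehicle-treated against naïve and 9 or 10 for TD139 against vehicle, where 3.47% to 12.3% of all genes were called higher and 7.71% to 22.8% lower.

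Over 20 alternatives the direction of each member was kept in both comparisons with vehicle-treated mice. Of 200 values for vehicle-treated against naïve mice, 52 lost and 11 gained the call, and of 200 for TD139 against vehicle 15 lost it. For TD139 against naïve mice 20 of 200 values changed sign, as did 3 of 81 ratio values, and the cause was not tested. In limma voom these were H2-Q4 at −0.18, B2m at −0.33, Psmb8 at −0.51 and Psmb9 at −0.64. The block gave −0.069 for Psmb8, the first flow cell alone −0.11 for Psmb9 and 0.011 for Psmb10/Psmb7, and the other flow cell alone 0.061 for H2-T23 and −0.17 for Psmb8. The length and GC correction gave 0.13 for H2-K1, 0.15 for H2-T23 and 0.14 for the median of the members. With 1 mouse left out, values against naïve mice ran from −0.60 to 0.087 for the median, −0.62 to 0.096 for H2-K1, −0.44 to 0.71 for H2-Q4, −0.59 to 0.11 for H2-T23, −0.45 to 1.03 for B2m, −0.76 to 0.33 for Psmb8 and −0.55 to 0.43 for Psmb9. The ratios ran from −0.17 to 0.62 for Psmb8/Psmb5 and from −0.26 to 0.10 for Psmb10/Psmb7. The lowest value was without TD139-treated mouse 1 for each of these 6 genes and the median, and the highest without TD139-treated mouse 3, except without TD139-treated mouse 2 for H2-T23 and naïve mouse 2 for Psmb9.

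The share of all genes called in either direction moved by more than 1.5 times. In vehicle-treated against naïve mice it was 7.80%, against 16.0% in DESeq2, 22.5% in limma voom, 19.8% after the length and GC correction and 0.00647 to 12.8% with 1 mouse left out. For TD139 against vehicle it was 33.4%, against 21.6% after the correction and 10.5 to 38.4% with 1 mouse left out, and for TD139 against naïve 5.10%, against 0 to 36.0% over the alternatives. With library size alone the median of all genes moved to 0.09 for vehicle against naïve, with 5.88% of genes called higher and 1.70% lower in place of 4.91% and 2.89%, and to −0.10 for TD139 against vehicle, with 12.8% higher and 20.0% lower in place of 17.2% and 16.2%. Psmb9 had the fewest reads, 17 to 38 in the naïve mice.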
